A study of Mus musculus with 11 samples.

Results

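The immunity-related GTPases (IRG) are a family of small interferon-induced GTPases, and 6 of them were followed here in mammary tumors with and without Pcbp1: Irgm1, Irgm2, Igtp, Iigp1, Tgtp1 and Tgtp2. They were taken by gene name from tables of 26283 genes, and all 6 had a row. Interferons, above all interferon-gamma, switch these genes on. Iigp1, Tgtp1 and Tgtp2 belong to the GKS subfamily, whose proteins gather on the membrane around an intracellular parasite or bacterium and break it up, whereas Irgm1, Irgm2 and Igtp belong to the GMS subfamily, whose proteins sit on the cell's own membranes and keep the GKS proteins inactive there. The family is best known from infected macrophages and fibroblasts.

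Pcbp1 encodes a protein that binds cytosine-rich single-stranded nucleic acids, and it was deleted in tumors driven by the polyomavirus middle T antigen (PyMT). Bulk poly(A) RNA was sequenced from 6 PyMT Pcbp1–/– tumors (knockout) and 5 PyMT Pcbp1+/+ tumors (wild-type), all taken at 18 weeks of age and all carrying the same batch label. Both groups were C57BL/6 mice with the MMTV-PyMT and MMTV-Cre transgenes, and they differed in carrying Pcbp1(fl/fl) or Pcbp1(wt/wt) alleles. The paper describes this system as deleting Pcbp1 selectively in the mammary epithelium. Whether stromal and immune cells of a knockout tumor keep Pcbp1 was not measured here. In bulk RNA fewer cells of a type and less RNA per cell cannot be told apart. The labels do not say that each tumor came from a separate mouse, so the p-values measure the spread between tumors.

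The tables summed to between 10543189 and 14092192 estimated counts per tumor. The knockout tumors were sequenced more deeply, with a median of 13135786 counts against 10975700 in the wild-type tumors (two-sided exact permutation test of the means, p = 0.00866). Levels are given as CPM, a gene's counts scaled to a total of 1000000 counts per tumor, which removes the difference in total, and the part of depth in the results was not tested further. At these totals 3 counts correspond to between 0.213 and 0.285 CPM. Pcbp1 itself (chromosome 6) measured 268, 271, 225, 220 and 259 CPM in wild-type tumors 1 to 5, and the knockout tumors had a lowest value of 15.4, a median of 20.9 and a highest of 33.6 CPM. No knockout tumor reached the wild-type range, and Pcbp1 fell by 3.43 on the log2 scale (SE 0.19, edgeR quasi-likelihood adjusted p = 4.72e-06).

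Irgm1, the GMS protein of lysosome and Golgi membranes, measured 46.7, 54.0, 72.5, 47.1 and 28.6 CPM in wild-type tumors 1 to 5. In the 6 knockout tumors the lowest Irgm1 value was 17.8, the median 24.6 and the highest 29.2 CPM. Wild-type tumor 3 was the highest of all, wild-type tumor 5 lay inside the knockout range, and the other 4 wild-type tumors were above every knockout tumor.

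Irgm2, a GMS protein of the Golgi, measured 83.8, 65.1, 152, 84.7 and 37.0 CPM in wild-type tumors 1 to 5. In the knockout tumors Irgm2 ran from 24.8 to 36.6 CPM with a median of 32.7. The groups did not overlap, but only by a narrow margin, since wild-type tumor 5 at 36.97 CPM stood just above knockout tumor 6 at 36.57 CPM. Igtp, also called Irgm3, is the GMS protein of the endoplasmic reticulum and measured 61.2, 54.3, 105, 58.6 and 20.7 CPM in wild-type tumors 1 to 5. In the knockout tumors Igtp had a lowest value of 11.3, a median of 17.8 and a highest of 20.95 CPM. Again wild-type tumor 3 was highest and wild-type tumor 5 fell among the knockout tumors, below knockout tumors 5 and 6.

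Iigp1, also called Irga6 and the best studied GKS protein, had the widest spread and measured 115, 44.8, 219, 104 and 24.9 CPM in wild-type tumors 1 to 5. In the knockout tumors Iigp1 ran from 13.1 to 35.3 CPM with a median of 23.7. The order of the wild-type tumors was the one seen for Igtp, from tumor 3 at the top through tumors 1, 4 and 2 to tumor 5, and tumor 5 was below knockout tumors 1 and 6.

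Tgtp1 and Tgtp2 encode the GKS protein Irgb6 and were the lowest members. Tgtp1 measured 19.6, 9.08, 28.4, 6.90 and 3.65 CPM in wild-type tumors 1 to 5, against a lowest value of 3.55, a median of 6.96 and a highest of 7.22 CPM in the knockout tumors. Tgtp2 measured 9.04, 2.66, 10.6, 4.01 and 1.16 CPM in wild-type tumors 1 to 5, against 1.05 at the lowest, 2.64 at the median and 3.25 CPM at the highest in the knockout tumors. Only 3 of 5 wild-type tumors exceeded every knockout tumor for either gene, tumors 1, 2 and 3 for Tgtp1 and tumors 1, 3 and 4 for Tgtp2, and knockout tumor 2 was the lowest tumor of all for both.

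**Figure D1:**
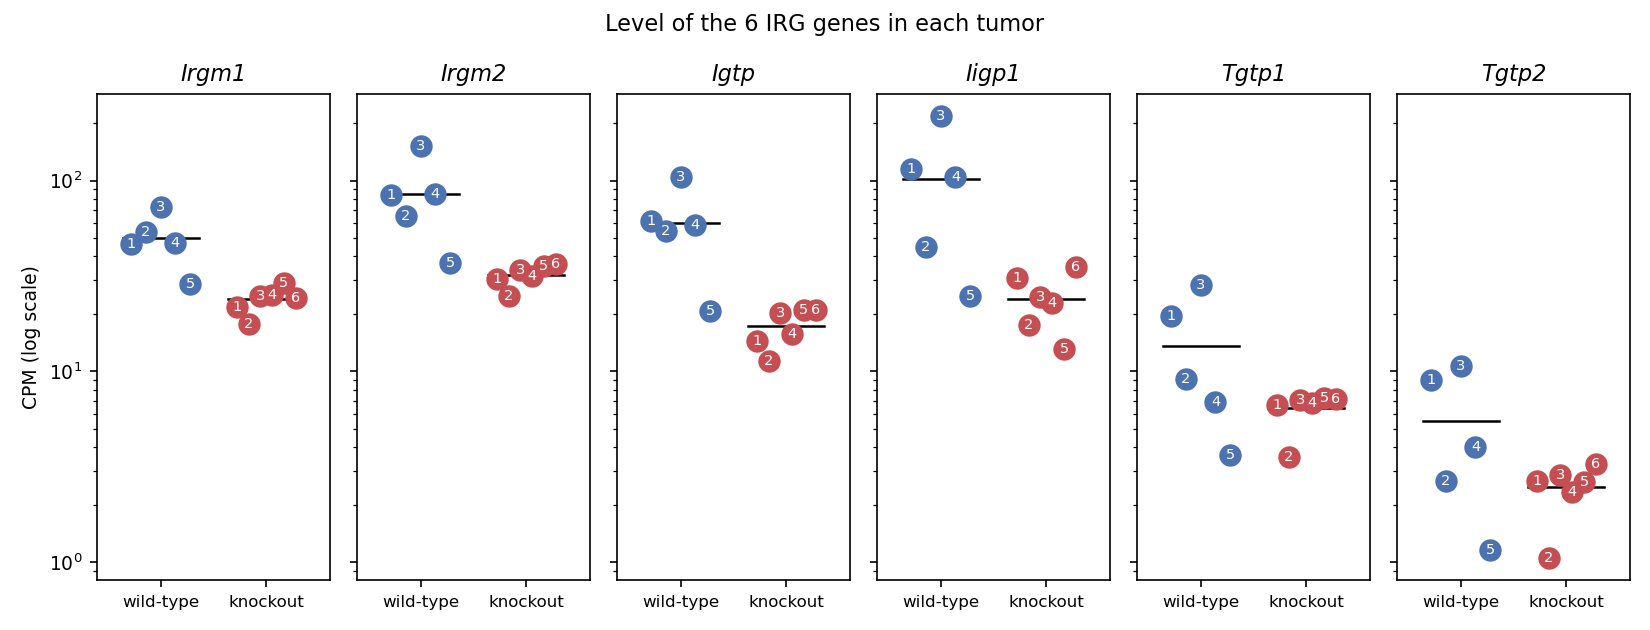
Each point is the CPM of 1 tumor on a log axis, numbered by its replicate, with wild-type tumors in blue, knockout tumors in red and a black line at the mean of each group. For all 6 genes wild-type tumor 3 is the highest point and wild-type tumor 5 lies in or next to the range of the knockout tumors.

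In edgeR's quasi-likelihood test, with Benjamini-Hochberg adjustment over all 19232 genes that passed a filter on low counts, 4 of the 6 members were lower in the knockout tumors at an adjusted p under 0.05 and 0 were higher, where 1.66% of all genes tested were called lower and 0.608% higher. All 6 passed the filter. The 4 were the whole GMS subfamily and Iigp1. At an unadjusted p under 0.05 the counts were 6 lower and 0 higher, against 2025 of all 19232 genes lower and 1576 higher. DESeq2 and limma-voom each called 4 lower and 0 higher, and of all genes they called 3.40% and 6.19% lower and 2.31% and 5.03% higher.

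Iigp1 fell by 2.10 on the log2 scale (SE 0.47, edgeR adjusted p = 0.0397), from a mean of 101 ± 75.8 CPM (SD, n = 5) to 24.0 ± 8.24 CPM (SD, n = 6). Igtp fell by 1.80 (SE 0.32, edgeR adjusted p = 0.0149), from 59.9 ± 29.9 to 17.2 ± 4.02 CPM. Irgm2 fell by 1.41 (SE 0.28, edgeR adjusted p = 0.0264), from 84.6 ± 42.6 to 32.2 ± 4.26 CPM. Irgm1, the regulator with the smallest difference, fell by 1.07 (SE 0.21, edgeR adjusted p = 0.0233), from 49.8 ± 15.8 to 23.8 ± 3.78 CPM. Tgtp1 had a log2 fold change of -1.09 (SE 0.44, edgeR adjusted p = 0.207) and means of 13.5 and 6.42 CPM, with SDs of 1.07 and 0.33 on the log2(CPM + 1) scale in wild-type and knockout tumors. Tgtp2 had a log2 fold change of -1.16 (SE 0.48, edgeR adjusted p = 0.219) and means of 5.49 ± 4.11 and 2.46 ± 0.753 CPM.

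The median log2 fold change of the 6 members was -1.28, against 0.00 over all genes tested. By the stricter rule of an unadjusted p under 0.001 with more than a 2-fold decrease, the same 4 members were called, where 0.572% of all genes were. Counting instead the genes for which every knockout tumor was below every wild-type tumor gave 1 of 6 members, Irgm2, against 2.02% of all genes.

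The calls lay close to the threshold. Leaving out knockout tumor 3 or knockout tumor 4 left only Igtp called, 1 of 6, and leaving out knockout tumor 1, knockout tumor 5, wild-type tumor 1 or wild-type tumor 4 left 2 of 6, Irgm1 and Igtp. Iigp1 was called in 2 of the 11 fits that leave out 1 tumor, those without wild-type tumor 2 or wild-type tumor 5, while Igtp was called in all 11. A fit of 10 tumors with a block for the replicate number gave the reverse. It called Iigp1 (edgeR adjusted p = 0.0464) but not Igtp, Irgm2 or Irgm1 (edgeR adjusted p = 0.0651, 0.0758 and 0.0952). The limma fits on log2(CPM + 1) and log2(CPM + 0.1) did not call Iigp1.

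The members differed from one another in the size of the change. This was tested on the difference itself, as each tumor's log2 ratio of 2 members, computed from CPM + 1, with a two-sided exact permutation test over all arrangements of the tumors and adjustment over the 15 pairs. The ratio of Iigp1 to Tgtp1 was 2.76 ± 0.60 in the wild-type and 1.71 ± 0.51 in the knockout tumors, and all 6 knockout tumors were below all 5 wild-type tumors (exact p = 0.00433, adjusted p = 0.0162). The ratio of Igtp to Tgtp1 was 2.21 ± 0.52 in the wild-type and 1.29 ± 0.19 in the knockout tumors, again without overlap (exact p = 0.00433, adjusted p = 0.0162). That p is the smallest these groups can give. Both genes also fell relative to Tgtp2, by 1.06 for Iigp1 and by 0.93 for Igtp on the log2 ratio scale, each with an adjusted exact p of 0.0162. The added 1 CPM weighs most on Tgtp2, and with 0.1 CPM in its place the ratio of Igtp to Tgtp2 was no longer called (adjusted exact p = 0.0758, within a range of 0.0238 to 0.0758 over 12 alternatives).

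Within the GMS subfamily Igtp fell further than its regulator relatives in the main test, but not in most alternatives to it. The log2 ratio of Irgm1 to Igtp was -0.16 ± 0.39 in the wild-type and 0.46 ± 0.18 in the knockout tumors, with 4 of 6 knockout tumors above every wild-type tumor (adjusted exact p = 0.039). The log2 ratio of Irgm2 to Igtp was 0.51 ± 0.20 in the wild-type and 0.88 ± 0.15 in the knockout tumors (adjusted exact p = 0.0433). Both calls were fragile, since the first was kept in 4 of 12 alternatives and the second in 1 of 12, though the differences kept their sign. The annotated Irgm2 and Igtp genes also overlap on the same strand, as described below, so their separate levels are uncertain. Between Tgtp1 and Tgtp2 the ratio was 1.12 ± 0.31 in the wild-type and 1.11 ± 0.10 in the knockout tumors (adjusted exact p = 0.944).

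Levels can also be set per length. In CPM per kilobase of the canonical transcript of a later annotation (GENCODE M39, used for lengths only), the wild-type means were 33.3 ± 24.9 for Iigp1, 26.2 ± 13.1 for Igtp, 24.3 ± 12.2 for Irgm2 and 23.9 ± 7.59 for Irgm1, which on this length did not differ from one another beyond their spread. Tgtp1 at 4.69 ± 3.55 and Tgtp2 at 1.96 ± 1.46 CPM per kilobase were well below them. In the knockout tumors the means were 11.4 ± 1.81 CPM per kilobase for Irgm1, 9.22 ± 1.22 for Irgm2, 7.90 ± 2.71 for Iigp1 and 7.54 ± 1.76 for Igtp, where only Irgm1 and Igtp differed by more than their summed SDs. Tgtp1 at 2.23 ± 0.493 and Tgtp2 at 0.875 ± 0.268 CPM per kilobase remained the lowest. The order of the other 4 depends on the length used. Per kilobase of merged exons in the same annotation, a choice made after seeing the data, the knockout means were 8.59 ± 1.14 for Irgm2 and 3.75 ± 0.595, 3.78 ± 0.882 and 3.77 ± 1.30 for Irgm1, Igtp and Iigp1, so Irgm2 came first and the next 3 lay within their spread of one another. The wild-type means were then 22.6 ± 11.4 for Irgm2, 15.9 ± 11.9 for Iigp1, 13.1 ± 6.56 for Igtp and 7.83 ± 2.49 for Irgm1, and Irgm1 was below Irgm2 by more than their spread.

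Of the 6 genes, 5 lie on chromosome 11 and Iigp1 lies on chromosome 18 (60376029 to 60392627, plus strand) in GRCm38, the build of the tables. Irgm1 (48861968 to 48871683), Tgtp1 (48985327 to 48994172) and Tgtp2 (49057194 to 49064206), all on the minus strand, share one stretch of chromosome 11, and Igtp (58199556 to 58207591) and Irgm2 (58199618 to 58222782), both on the plus strand, share another.

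Several of these genes cannot be fully separated by counting. The annotated Irgm2 gene overlaps Igtp by 7974 bases on the same strand, and both had counts that were not whole in 3 of 11 tumors, a sign of divided reads (tolerance 0.01 counts), so their separate levels are uncertain. Summed, the pair fell by 1.56 on the log2 scale (edgeR adjusted p = 0.0193). Tgtp1 overlaps Gm12185, another IRG gene, by 6900 bases on the same strand and had counts that were not whole in all 11 tumors. Tgtp1 and Tgtp2 are near-identical copies, with 2804 of 2810 aligned transcript bases the same, but Tgtp2 had whole counts in all 11 tumors, so its counts show no sign of reads divided between the copies. How reads that fit both were counted is not given in the sources used here. Summed, they had a log2 fold change of -1.11 (edgeR adjusted p = 0.203), on the same side of the threshold as each copy alone. Both also lie inside the annotated Olfr56 gene of the opposite strand, and whether the counting used the strand is not given in the sources used here.

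Other genes of the family were measured as well. Of 18 further IRG gene names, 10 had a row and 8 passed the filter, of which 2 were lower and 0 higher in the knockout tumors, with a median log2 fold change of -1.37. Their unadjusted counts at p under 0.05 were 4 lower and 0 higher, and DESeq2 called 4 and limma-voom 3, all lower. The edgeR calls were fragile, since 0 of the 8 were called in 6 of the 11 fits that leave out 1 tumor and in both limma fits on log2(CPM). Gm12250, which encodes Irgb10 and lies next to Igtp, fell by 2.35 (SE 0.49, edgeR adjusted p = 0.0291), from 7.83 ± 6.32 to 1.55 ± 0.46 CPM. F830016B08Rik, a relative of Iigp1, fell by 2.17 (SE 0.51, edgeR adjusted p = 0.0472). Iigp1c and Gm4841, also close to Iigp1 in sequence, had log2 fold changes of -2.18 (edgeR adjusted p = 0.0536) and -1.82 (edgeR adjusted p = 0.127). Gm5431 had -0.93 (edgeR adjusted p = 0.28), the large tandem GTPase genes 9930111J21Rik1 and 9930111J21Rik2 had -0.35 and -0.26, and Irgq, a family member that interferon does not induce, had -0.01 (SE 0.15, edgeR adjusted p = 0.987). Gm12185 and Irgc1 did not pass the filter.

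Genes within 50 kb of a member give the local setting. Ifi47, which encodes the IRG protein Irgd and lies beside Tgtp2, had a log2 fold change of -0.79 (SE 0.24, edgeR adjusted p = 0.112). Beside Irgm1, the ubiquitin ligase gene Trim7 fell by 0.72 (SE 0.10, edgeR adjusted p = 0.00414) and the antisense gene Gm16170, which overlaps Trim7, fell by 1.18 (SE 0.17, edgeR adjusted p = 0.0048). For both, every knockout tumor was below every wild-type tumor, but they lie on opposite strands and, as the use of strand in the counting is not given, their changes may not be separate. Trim41, Cdk2ap1rt, Psme2b and Gm12186 near Irgm1 or Tgtp1, and Mrpl22 and Gemin5 near Igtp, were not called, with log2 fold changes between -0.13 and 0.22, and Olfr56 had -0.76 (edgeR adjusted p = 0.423). Olfr1396, Gm12188, BC023105 and Gm6960 did not pass the filter.

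**Figure D2:**
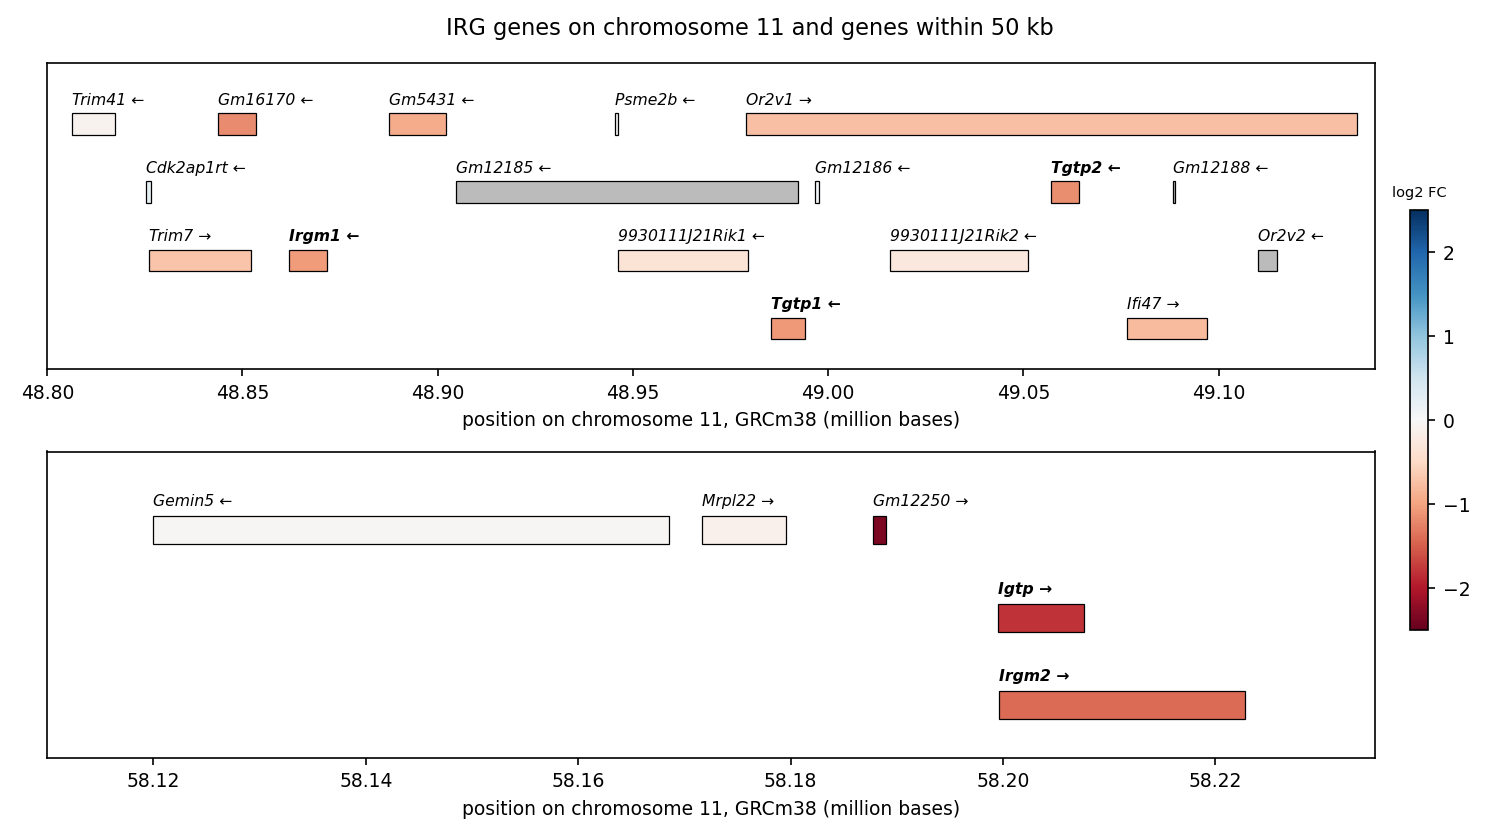
Annotated genes (boxes, with arrows for the strand) along the 2 stretches of chromosome 11 in GRCm38 that hold 5 of the 6 members (bold), with all genes within 50 kb, colored by log2 fold change (knockout minus wild-type) and gray where the filter removed the gene. Boxes of Igtp and Irgm2, and of Tgtp1 and Gm12185, overlap, and Gm12250 beside Igtp has the darkest red at -2.35.

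The sequences in front of these genes share a feature. Interferon-responsive promoters often hold an ISRE (interferon-stimulated response element), bound by interferon regulatory factors, or a GAS element (gamma-activated sequence). RefSeq promoters (GRCm38.p6) were searched over the 250 bases before each start on both strands, for the ISRE core GAAANNGAAA and for the GAS core TTCNNNGAA. Of the 6 members, 5 had a promoter in that set. Iigp1 had none there and was not searched, so nothing is said of its motifs. The ISRE core was in all 5 and the GAS core in 4, all but Irgm1, while 2.98% and 7.02% of 32851 promoters held them. Members and list genes were counted by gene, and these shares by promoter. Igtp and Irgm2, and Tgtp1 and Tgtp2, are alike in sequence, so their matches are not independent. The ISRE core is not particular to the members, since it was also in 5 of 5 guanylate-binding protein genes and 8 of 13 type I interferon targets with a promoter there, where the GAS core was in 2 and 3. Among other IRG genes the ISRE core was in 2 of 6, and among interferon-gamma targets in 2 of 12, with the GAS core in 2 and 1. In Igtp, Irgm2, Tgtp1 and Tgtp2 the GAS core ended 2 bases before the ISRE core. This arrangement, looked for after the sequences had been read, was in 5 promoters of all (0.0152%), those 4 and Gm12185.

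The stretches are printed to show that spacing, 5′ to 3′ on the strand of the gene, with the bases of ISRE and GAS cores in capitals. They lie on chromosome 11 (GRCm38.p6), upstream of the RefSeq starts, at chr11:48871421-48871470 (minus strand) for Irgm1, chr11:58214887-58214938 (plus strand) for Irgm2, chr11:58199496-58199547 (plus strand) for Igtp, chr11:48992298-48992349 (minus strand) for Tgtp1 and chr11:49064257-49064308 (minus strand) for Tgtp2. Only for Igtp is the RefSeq start also the start of the gene in the tables, and the stretches of Irgm1, Irgm2 and Tgtp1 lie inside the gene given there.
Irgm1: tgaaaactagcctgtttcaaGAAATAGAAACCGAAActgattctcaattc
Irgm2: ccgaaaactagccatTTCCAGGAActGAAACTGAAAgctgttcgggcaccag
Igtp: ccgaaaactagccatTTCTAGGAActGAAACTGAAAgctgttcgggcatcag
Tgtp1: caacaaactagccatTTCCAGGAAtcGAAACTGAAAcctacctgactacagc
Tgtp2: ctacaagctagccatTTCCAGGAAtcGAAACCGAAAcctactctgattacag
The Igtp and Irgm2 stretches had 50 of 52 bases in common, and those of Tgtp1 and Tgtp2 had 39 of 52. In Irgm1 there were 2 ISRE cores that overlap by 4 bases. A match describes the letters, and binding at these places was not measured.

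Of 11 interferon-gamma signalling genes reported here, 10 were tested and edgeR, DESeq2 and limma-voom called 0 in either direction, with 1 lower and 0 higher at an unadjusted p under 0.05 and a median log2 fold change of -0.06. Ifng, the ligand, did not pass the filter and had means of 0.126 ± 0.0816 CPM in the knockout and 0.0906 ± 0.0896 CPM in the wild-type tumors, below the level of 3 counts. The receptor genes Ifngr1 and Ifngr2 had log2 fold changes of 0.02 and 0.27, and the kinase genes Jak1 and Jak2 had 0.21 and -0.03. The transcription factors Irf1 and Irf8 had -0.01 and -0.29. The inhibitors Socs1, Socs3, Ptpn2 and Pias1 had -0.58, -0.23, -0.25 and -0.09.

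**Figure D3:**
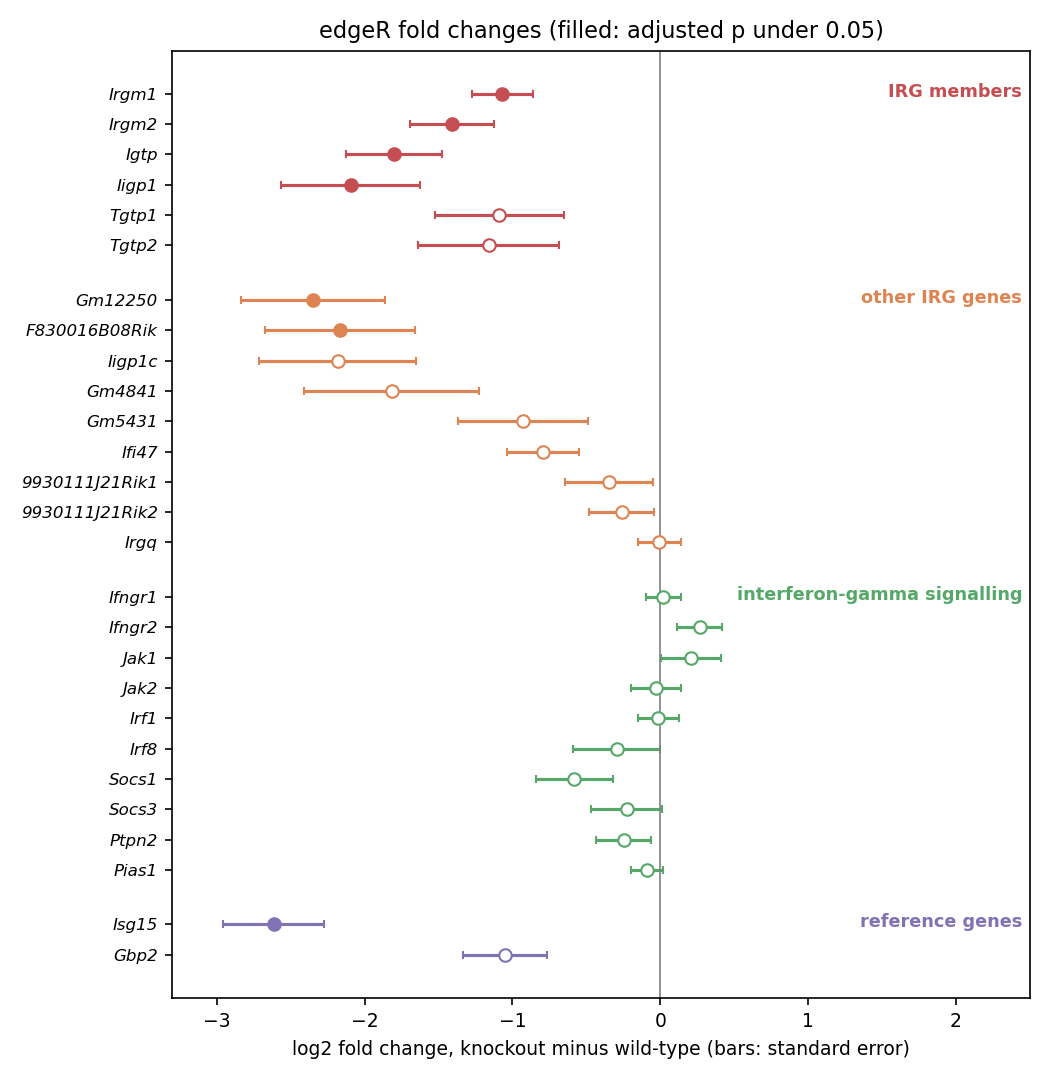
Log2 fold changes (knockout minus wild-type) with standard errors from edgeR for the 6 members, the other IRG genes tested with Ifi47, the interferon-gamma signalling genes and the reference genes Isg15 and Gbp2, with filled points for an adjusted p under 0.05. The members lie between -2.10 and -1.07, Irgq at -0.01, and the signalling genes shown between -0.58 and 0.27.

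The members' median of -1.28 lay between those of interferon-gamma targets and type I interferon targets. These lists were chosen with earlier results of these data known, so their counts and medians describe the lists and are not independent support. In these lists and that of the guanylate-binding proteins, 0 genes were higher at an unadjusted p under 0.05 or by DESeq2 or limma-voom. Of 18 interferon-gamma targets tested, edgeR called 3 lower and 0 higher, with a median log2 fold change of -0.63: the peptide transporter genes Tap1 (-1.06, adjusted p = 0.0325) and Tap2 (-0.68, adjusted p = 0.0325) and the checkpoint ligand gene Cd274 (-1.26, adjusted p = 0.0399). Psmb10, the most positive of that list, had 0.04. DESeq2 called 5 of these targets and limma-voom 9, all lower, whereas edgeR called 0 in 7 of the 11 fits that leave out 1 tumor. With a block for the replicate number edgeR also called 0 of them. Of 8 guanylate-binding protein genes tested, relatives of the IRG genes that act with them on vacuoles, 1 was lower and 0 higher, Gbp3 at -2.04 (SE 0.37, edgeR adjusted p = 0.0153), with Gbp6 at -1.75 (adjusted p = 0.0664), Gbp2 at -1.05 (adjusted p = 0.0777) and the most positive, Gbp8, at -0.25. DESeq2 called 3 of them and limma-voom 4, all lower, and edgeR called 1 to 5 in the fits that leave out 1 tumor and 0 in a fit of 10 tumors with a block for the replicate number. Of 10 type I interferon signalling genes tested and reported here, 4 were lower and 0 higher, the 3 with the smallest adjusted p being Irf7 (-2.89, adjusted p = 0.00194), Stat2 (adjusted p = 0.0112) and Irf9 (-0.85, adjusted p = 0.0254), and the most positive was Jak1 at 0.21. Of these, 2 to 4 were called lower in the fits that leave out 1 tumor and 2 with that block. Of 18 type I interferon targets, 18 were lower, with a median of -2.42, from Rsad2 and Ifit3b at -3.05 to Ifit2 at -1.02, and the 3 with the smallest adjusted p were Oas1a (-1.94), Ifit1 (-2.80) and Rsad2. The fits that leave out 1 tumor called 15 to 18 of these targets lower, and the fit with that block called 13.

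Against single reference genes the members differed among themselves. Per-tumor log2 ratios of each member to Isg15 (a type I interferon target) and Gbp2 were tested in the same way, with adjustment over the 18 ratios planned, of which these 12 are reported. Relative to Isg15, 5 of the 6 members were higher in the knockout tumors, that is, their log2 ratio to Isg15 rose, by a difference in log2 ratio of 1.34 for Irgm1, 1.09 for Irgm2, 0.72 for Igtp, 1.63 for Tgtp1 and 1.65 for Tgtp2 (adjusted exact p = 0.0223 for Igtp and 0.0156 for the others). For Iigp1 that difference was 0.59 (adjusted exact p = 0.255). Relative to Gbp2, Igtp was lower by a difference of -0.74 (adjusted exact p = 0.0156) and Iigp1 by -0.87 (adjusted exact p = 0.0292). The other 4 ratios to Gbp2 were not called. Of these 7 calls, 6 held in all 12 alternatives tried, and that of Iigp1 to Gbp2 held in 4 of 12.

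Wild-type tumor 5 had the lowest wild-type value of each of the 6 members. It was above the highest knockout tumor for 1 of the 6 members and 0 of the 8 guanylate-binding protein genes tested, and for 13 of the 18 type I interferon targets, against 12.8% of all genes tested. Isg15, for example, was 10.2 CPM in wild-type tumor 5 against at most 7.03 CPM in the knockout tumors, and Irf7 was 40.0 CPM against at most 22.3. Wild-type tumor 3, at the other end, was the highest of all 11 tumors for 6 of 6 members, 8 of 8 guanylate-binding protein genes, 15 of 18 interferon-gamma targets and 16 of 18 type I interferon targets, against 3.70% of all genes tested. As the lists were chosen with earlier results of these data known, their counts for both tumors are descriptive.

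Genes that varied with the members inside each genotype were looked for by Pearson's r over the 11 tumors, after the genotype means had been subtracted, between each gene's log2(CPM + 1) and the mean of the 6 members. On that scale the members' SDs were 0.48 to 1.21 in wild-type and 0.20 to 0.50 in knockout tumors. The wild-type tumors therefore weigh more in r. Among 10872 protein-coding genes with a mean of at least 5 CPM, outside the IRG and guanylate-binding protein families, the 5 most alike were Tap1 (r = 0.937, Spearman's rho = 0.709), Ifit3 (r = 0.928, rho = 0.873), Oas3 (r = 0.923, rho = 0.864), Usp18 (r = 0.921, rho = 0.809) and the immunoproteasome gene Psmb9 (r = 0.918, rho = 0.627). They were picked as the highest of many, so no p is given. With 0.1 CPM added in place of 1, Tap1, Ifit3 and Usp18 stayed among the first 5, and Psmb9 came 6th and Oas3 12th. Without wild-type tumors 3 and 5, the farthest from the median, r was 0.640 for Tap1, 0.881 for Ifit3, 0.689 for Oas3, 0.825 for Usp18 and 0.475 for Psmb9 over 9 tumors, so the likeness of Psmb9 in particular rested on those tumors.

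The machinery that brings IRG proteins to vacuoles was measured as 14 genes, of LC3 and GABARAP conjugation and of ubiquitin and its adaptors. EdgeR called 0 of 14, with 1 lower and 1 higher at an unadjusted p under 0.05 and 0 calls by DESeq2 or limma-voom, and the median log2 fold change was 0.04. The smallest adjusted p belonged to Atg5 (0.24, adjusted p = 0.192), Trim21 (-0.41, adjusted p = 0.244) and Atg12 (0.16, adjusted p = 0.313), and Atg5 was also the most positive.

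Because members of this family are also expressed by immune cells, marker genes were summed in each tumor. Luminal epithelial markers summed to 1770 ± 237 CPM in the wild-type and 1720 ± 314 CPM in the knockout tumors, with Cdh1 the most abundant of 8 in the wild-type and Cldn3 in the knockout tumors, and 0 of 8 were called by edgeR (0 at an unadjusted p under 0.05, 0 by DESeq2 and 0 by limma-voom). The 7 macrophage markers reported here summed to 242, 164, 280, 226 and 126 CPM in wild-type tumors 1 to 5 and to between 170 and 358 CPM in the knockout tumors, with C1qb the most abundant. Their log2 fold changes lay between 0.16 and 0.72, and 0 of 7 were called by edgeR, DESeq2 or limma-voom. The 8 T cell markers summed to 8.31, 3.98, 7.36, 9.29 and 2.95 CPM in wild-type tumors 1 to 5 and to between 3.52 and 8.45 CPM in the knockout tumors, with Cd8a the most abundant and Cd3d, Cd3g and Cd8b1 at a mean of 3 counts or fewer. Only 3 of the 8 passed the filter, and 0 were called by edgeR, DESeq2 or limma-voom. By flow cytometry and immunofluorescence the paper reported fewer CD3+CD8+ T cells in knockout tumors. Cell numbers were not measured here. For NK cells the sums were 6.15 ± 2.86 and 6.32 ± 2.60 CPM in wild-type and knockout tumors, with Klrk1 the most abundant of 8 and Gzma at 3 counts or fewer. Of these 8 NK cell markers 3 passed the filter, and 0 were called by edgeR, DESeq2 or limma-voom.

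Wild-type tumor 5, low in the members, had the lowest sum of T cell markers, of these macrophage markers and of basal epithelial markers (48.0 CPM against at least 65.4 CPM elsewhere), and wild-type tumor 3 had the highest sum of adipocyte markers, 57.3 CPM against at most 27.9 CPM elsewhere. Dendritic cell markers summed to 17.1 ± 4.50 and 17.0 ± 6.51 CPM in wild-type and knockout tumors (Zbtb46 most abundant, with 12.4 and 13.4 CPM of these sums), neutrophil markers to 3.69 ± 2.89 and 2.90 ± 1.21 CPM (Csf3r), endothelial markers to 66.3 ± 14.0 and 56.9 ± 15.9 CPM (Cdh5), fibroblast markers to 544 ± 157 and 660 ± 190 CPM (Col1a1), basal epithelial markers to 268 ± 216 and 217 ± 79.3 CPM (Krt5 in the knockout tumors, and in the wild-type tumors Krt14, through wild-type tumor 2 at 277 CPM against at most 47.6 CPM in the others) and adipocyte markers to 17.2 ± 22.6 and 10.7 ± 11.3 CPM (Fabp4). The dendritic cell marker Clec9a had a log2 fold change of -1.36 (edgeR unadjusted p = 0.00568, adjusted p = 0.105), was called lower by limma-voom and was highest in wild-type tumor 3, while the other 2 dendritic cell markers tested, Cd209a and Zbtb46, had 0.87 and 0.11 and were not called. Of 4 B cell markers, the 1 with a row, Cd79b, had 0.328 ± 0.140 and 0.371 ± 0.242 CPM. The part of other cell types in the members' levels was not tested.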

How the data were processed

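Flash-frozen tumors gave stranded poly(A) libraries, sequenced as read pairs. Per the study's methods the authors aligned reads to GRCm38 with Bowtie2 and worked in Partek Flow. The annotation version and counting method are not given in the sources used here. The authors deposited estimated counts per gene, not whole where reads were divided, and CPM, each deposited CPM being the count over the tumor's total (largest relative difference 0.00146). Counts were rounded, scaled by TMM, filtered with filterByExpr and tested by genotype in edgeR 4.0.16 (R 4.3.3), in place of the authors' Gene Specific Analysis, and the procedure was tested on simulated counts. DESeq2 1.42.0, limma 3.58.1, other scalings, filters and pseudocounts, sums of overlapping or near-identical genes, a replicate block and omission of each tumor were the alternatives. Exact permutation tests used SciPy 1.17.1 and transcript alignment Biopython 1.88. Symbols missing from the tables were matched by Ensembl identifier. The members and lists were chosen with earlier results of these data known. Named were Pcbp1, all IRG and interferon-gamma signalling genes, of other lists the 3 with the smallest adjusted p and the most positive, the 5 most alike, and genes within 50 kb. Results of some planned genes, called ones among them, are not reported here, and list counts and sums omit them. Ifi47 entered only as a neighbor of Tgtp2. No libraries agreed within sampling noise.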

Additional observations from a re-analysis of the deposited data

Results flagged for a closer look

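Of 12 groups of tumors tested for a single stray value (6 genes, each in both genotypes), 1 had one by Dixon's gap rule, and chance flags about 1 in 20. Tgtp1 in knockout tumor 2 was 3.55 CPM, with the nearest other knockout tumor at 6.66 CPM, a gap of 0.849 of the range. That tumor also had the lowest Irgm1, Irgm2, Igtp and Tgtp2 of all 11 tumors. The cause was not tested.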

How the results depend on the processing

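Every member had a negative log2 fold change under each alternative to the edgeR fit run for it, from -2.34 to -0.56 (22 alternatives, those that sum a pair giving 1 value for its genes together), and Tgtp1 and Tgtp2 were called under none. Summing Igtp and Irgm2 and the merged exon length were chosen after seeing the data. The limma fits on log2(CPM + 1) and log2(CPM + 0.1) gave Iigp1 -1.74 and -1.77 and did not call it, and the first gave Tgtp1 -0.69 and Tgtp2 -0.68. Leaving out 1 tumor at a time called 1 to 4 members lower, 18 to 35 of the 85 tested list genes (28 in the full fit) and 186 to 541 genes in all (436 in the full fit), each such fit having fewer tumors. The log2 fold changes then ran from -1.20 to -0.84 for Irgm1, from -1.59 to -1.02 for Irgm2, from -2.02 to -1.45 for Igtp, from -2.34 to -1.53 for Iigp1, from -1.33 to -0.56 for Tgtp1 and from -1.41 to -0.71 for Tgtp2, the ends of each range being reached without wild-type tumor 5 and without wild-type tumor 3. DESeq2 called 1176 genes and limma-voom with quality weights 2158, of which 40.5% and 44.9% were higher against 26.8% in edgeR, and both called the same 4 members.

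The genotypes share replicate numbers, but same-numbered tumors did not all deviate together (correlations 0.134, 0.0867, -0.079, -0.144 and 0.293). Tumors with different numbers were not compared in this way, so these values cannot decide whether the numbers mark pairs. With a replicate block over 10 tumors 1 member, Iigp1, 16 list genes and 160 genes in all were called, and Irgm1, Irgm2 and Igtp were not called, at -1.04, -1.32 and -1.76.

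Differences in log2 ratio changed sign only where they were not called. Tgtp1 to Tgtp2 went from -0.01 to 0.06 with 0.1 CPM added, and without single tumors it ran from -0.13 to 0.07, Igtp to Iigp1 from -0.08 to 0.34, Irgm1 to Gbp2 from -0.25 to 0.06 and Tgtp1 to Gbp2 from -0.06 to 0.32. The cause of these changes was not tested. Tgtp2, at 13 to 121 counts per tumor, is the member whose values depth limits most.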
